A study of Mus musculus with 12 samples.

Results

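The MYST family of lysine acetyltransferases and the partner proteins of its KAT6 complexes were followed here as 10 genes: Kat6b, Kat6a, Kat7, Kat8 and Kat5 for the enzymes, and Brpf1, Brd1, Brpf3, Ing5 and Meaf6 for the partners. Every probe set whose current or older platform symbol was one of these names was taken, which gave 25 of the 45101 probe sets on the array. They stand for 10 of the 18193 genes that the array names. A probe set is the group of short oligonucleotides that reports 1 transcript. Of the 25 probe sets, 16 had a log2 value over 4 on at least 3 arrays and entered the tests, and 9 did not, while each of the 10 genes kept at least 1 probe set. The array held 3 probe sets each for Kat6b, Kat6a and Kat7, 1 each for Kat8 and Brpf1, 2 each for Kat5, Brpf3 and Meaf6, and 4 each for Brd1 and Ing5.

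The study set Qkf gt/gt mutants against wild types to find transcripts that depend on Kat6b, at an adult and an embryonic stage. Kat6b is also named Qkf, Querkopf, Myst4 or Morf. The 12 arrays held 3 adult mutants, 3 adult wild types, 3 embryonic mutants and 3 embryonic wild types, all of strain 129/Sv. The adults were labelled male and gave dorsal cerebral cortex at 155, 112 and 99 days in the mutants and at 155, 112 and 101 days in the wild types, and each carried its own mouse number. The embryos gave dorsal telencephalon, the tissue that forms the cortex, at E12.5, a day of gestation at which cortical neurons begin to form. Their sex was not labelled, and the labels give the parents and not whether each array held 1 embryo. Mutant 1 and wild type 1 of E12.5 came from a first cross, and the other 4 embryonic arrays came from a second. Mutants carried the gt allele, a gene-trap insertion, on both copies of the gene, and none of the sources used here places the Kat6b probe sets relative to the insertion, so that they measure RNA level at their own position only.

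MYST enzymes transfer acetyl groups to lysines of histone tails, and each works inside a multi-subunit complex. KAT6A and KAT6B are close relatives that share one kind of complex, in which a bromodomain and PHD finger scaffold (BRPF1, BRD1 or BRPF3) joins the enzyme to ING5, a reader of methylated histone H3, and to the small subunit MEAF6. KAT7 can use the same scaffolds or JADE proteins, KAT8 acts on histone H4 in the MSL and NSL complexes, and KAT5 is the enzyme of the TIP60-NuA4 complex. In mice Kat6b is known for its part in the growth of the cerebral cortex and in neural progenitors.

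Defining markers of the labelled tissues were present. Embryonic arrays held high Emx2, Pax6, Neurog2 and Eomes, genes of dorsal progenitors and their progeny. In adults Neurog2 lay at the lowest value of the arrays while Slc17a7 and Camk2a, genes of excitatory neurons, were high. The other measured genes of excitatory neurons, Neurod6 and Tbr1, were high at both stages. Neurod6 ran from 10.03 to 10.42 in adults and from 10.20 to 12.58 in embryos. Tbr1 ran from 10.03 to 10.91 in adults and from 10.58 to 10.79 in embryos. The progenitor gene Lhx2 was lower in adults but still at 10.03 to 10.34, against 13.22 to 13.79 in embryos. Markers of neighbouring tissue stood apart on adult mutant 3 and, at E12.5, jointly on mutant 1 and wild type 1, which share a cross. On that embryonic pair Neurog2 read 11.17 and 11.19, while the second cross gave 11.96 to 12.18. Neurod6 read 10.60 and 10.20 on the pair, while the second cross gave 11.92 to 12.58. Eomes and the choroid plexus gene Ttr were also lower on both, and the ventral gene Dlx1 and Emx2 were higher. Tbr1, Lhx2 and Otx2 overlapped between the crosses. The mean of 4 of 5 listed ventral telencephalon genes was 5.37 in E12.5 mutant 1 against 2.67 and 2.83 in the other embryonic mutants, and 6.14 in E12.5 wild type 1 against 2.63 and 4.08 in the other embryonic wild types, with Nkx2-1 at the lowest value on all 12 arrays. The mean of 5 of 5 listed choroid plexus genes was 5.72 in adult mutant 3, 3.36 and 3.48 in the other adult mutants and 3.18 to 3.65 in adult wild types, with Otx2 at the lowest value in all adults. For the actin control the 3′ minus 5′ signal, which widens when RNA is degraded, was 1.91, 1.47 and 1.09 on adult mutants 1, 2 and 3 against 1.06 to 1.13 on adult wild types, and 0.71 to 1.03 on the embryonic arrays. The array names put all adults in 1 set, E12.5 mutant 1 alone in another and the other 5 embryonic arrays together, so that stage and array set cannot be told apart. In tissue RNA, fewer cells of a type and less RNA per cell cannot be told apart either.

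The promoters of 4 members are printed as examples, and other members changed between the stages too. Kat6b is the mutated gene. Brd1 and Brpf3 encode scaffolds of its complex whose main probe sets were lower in adult than in E12.5 wild types. The main probe set of Kat7 was the only member probe set past the test that was higher in adult wild types. Sequences are from RefSeq on GRCm38.p6, 250 bases before the first listed start site, 5′ to 3′ on the gene's strand. Capitals mark GGGCGG or its reverse complement CCGCCC, the GC box, with overlapping matches counted separately and run together. The windows are chr14:21499520-21499769 on the plus strand for Kat6b, chr15:88734220-88734469 on the minus strand for Brd1, chr17:28800876-28801125 on the plus strand for Brpf3 and chr11:95310247-95310496 on the minus strand for Kat7.
Kat6b: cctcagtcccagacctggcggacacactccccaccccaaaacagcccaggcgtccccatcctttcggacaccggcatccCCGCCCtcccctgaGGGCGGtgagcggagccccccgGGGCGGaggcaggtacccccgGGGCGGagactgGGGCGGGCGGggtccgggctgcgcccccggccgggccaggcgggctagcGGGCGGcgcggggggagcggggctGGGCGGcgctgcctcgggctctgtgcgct
Brd1: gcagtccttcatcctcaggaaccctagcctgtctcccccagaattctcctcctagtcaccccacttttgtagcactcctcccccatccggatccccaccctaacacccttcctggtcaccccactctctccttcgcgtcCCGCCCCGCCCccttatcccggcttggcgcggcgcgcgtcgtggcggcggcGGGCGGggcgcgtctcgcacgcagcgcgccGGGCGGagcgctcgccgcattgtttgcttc
Brpf3: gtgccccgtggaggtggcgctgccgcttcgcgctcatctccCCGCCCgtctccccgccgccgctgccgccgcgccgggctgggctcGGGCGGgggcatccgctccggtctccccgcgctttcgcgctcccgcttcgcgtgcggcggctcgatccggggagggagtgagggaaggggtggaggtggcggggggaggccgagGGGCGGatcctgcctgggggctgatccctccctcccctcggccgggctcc
Kat7: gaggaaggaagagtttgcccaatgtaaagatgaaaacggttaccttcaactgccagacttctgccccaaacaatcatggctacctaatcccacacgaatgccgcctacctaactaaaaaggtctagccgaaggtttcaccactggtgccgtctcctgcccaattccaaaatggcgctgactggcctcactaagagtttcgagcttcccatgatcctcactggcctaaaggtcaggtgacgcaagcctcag

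The Kat6b window held 8 GC boxes and 27 CpG dinucleotides at 78.8% G and C. Brd1 held 4 boxes and 27 CpG, Brpf3 held 3 boxes and 34 CpG, and Kat7 held 0 boxes and 8 CpG at 50.8% G and C. Promoters were listed for 9 of the 10 genes, with 12 start sites, and 9 of those start sites had a GC box, against 32.75% of the 32841 promoters in the same table. Kat6b, Kat5 and Kat8 have 2 start sites each, and both Kat6b windows overlap and hold the same 8 boxes. The 12 sites are therefore not independent. The CpG count of the 12 sites ran from 5 to 34, and the median over all promoters was 6. Of the members not printed, Brpf1 held 1 box, Kat8 held 1 box at each of its start sites, Ing5 held 3 and Meaf6 held 0. These genes were also lower in adult than in E12.5 wild types. Kat5, which did not pass the test between these stages, held 0 boxes at its first start site and 3 at its second. The matches describe the letters of the windows, and were tied to no measurement of binding and to no RNA change.

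Kat6b RNA was far lower in mutants than in wild types at both stages, with the larger log2 difference in the embryo. On its main probe set, 1423508_at, log2 values were 7.25, 7.17 and 6.92 in adult mutants, against 9.68, 9.35 and 9.72 in adult wild types. In E12.5 telencephalon the same probe set gave 6.22, 7.24 and 7.72 in mutants, against 11.28, 11.40 and 11.42 in wild types. The genotypes did not overlap at either stage, and mutants of the 2 stages lay in the same range. In adult cortex the mean was 7.11 ± 0.17 in mutants and 9.58 ± 0.21 in wild types (SD, n = 3 each), and in E12.5 telencephalon it was 7.06 ± 0.77 in mutants and 11.37 ± 0.08 in wild types (SD, n = 3 each).

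**Figure D1:**
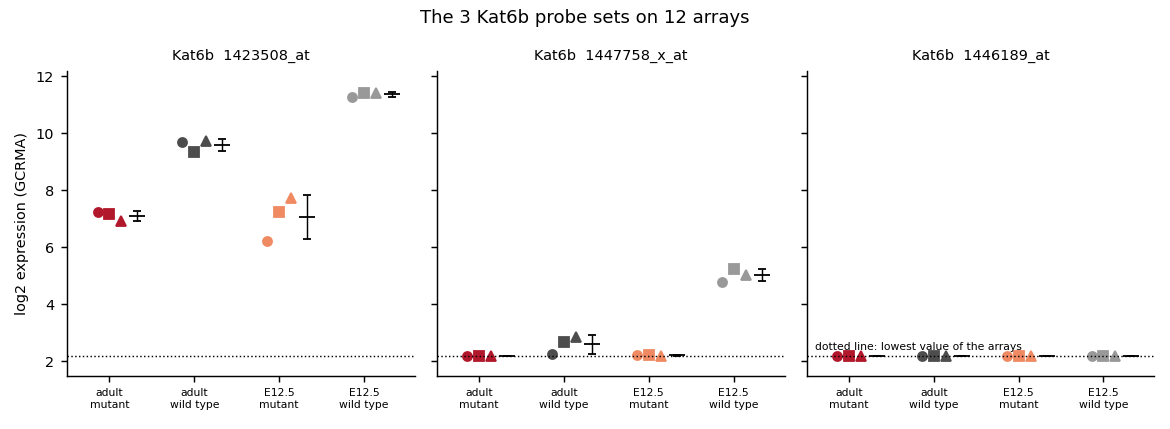
Log2 expression (GCRMA, vertical axis) of the 3 Kat6b probe sets on each of the 12 arrays, in 4 groups of 3 arrays; symbols are replicates 1 (circle), 2 (square) and 3 (triangle), the bar beside them is the mean with its SD, and the dotted line is the lowest value of the arrays, 2.19. On 1423508_at both mutant groups average 7.06 to 7.11, below adult wild types at 9.58 and E12.5 wild types at 11.37, while 1446189_at lies at the lowest value on every array.

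By limma over all 12 arrays, the adult mutant minus wild-type difference of 1423508_at was -2.47 on the log2 scale (SE 0.30, 95% interval -3.12 to -1.82, adjusted p = 0.0242), so that mutants held 18.1% of the wild-type signal (11.5% to 28.4%). At E12.5 the difference was -4.31 (SE 0.30, interval -4.96 to -3.66, limma adjusted p = 0.000184), and mutants held 5.04% of the wild-type signal (3.21% to 7.93%). These were the largest falls among all 20292 probe sets tested at either stage. With the age pairs and crosses as a block the adult difference kept its size and its limma adjusted p became 0.054. The adult call was also lost on leaving out any of the 6 adult arrays, E12.5 mutant 2 or any E12.5 wild type in turn, with differences of -2.59 to -2.37 and limma adjusted p up to 0.191, and with the actin control as a covariate (-2.62, adjusted p = 0.350).

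Within the age pairs the adult mutant minus wild-type difference of 1423508_at was -2.43 at 155 days, -2.18 at 112 days and -2.80 at 99 and 101 days, each from 1 mutant and 1 wild type. Within the crosses it was -5.06 in the first (1 mutant and 1 wild type) and -3.93 in the second (2 mutants and 2 wild types). E12.5 mutant 1, the array with the lowest Kat6b value among mutants, is the array in a set of its own and one of the 2 embryonic arrays with high ventral markers. Without it the E12.5 difference was -3.89 and its limma adjusted p was 1.84e-05. Without adult mutant 3, the array with high choroid plexus markers, the adult difference was -2.37.

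The log2 difference was smaller in size in adults than in embryos, but the difference between these 2 mutant effects did not pass the test for the main probe set. It was 1.84 (interval 0.92 to 2.76, unadjusted p = 0.00111, limma adjusted p = 0.585). Without E12.5 mutant 1 it was 1.42, the lowest value on leaving out any 1 array. A second Kat6b probe set, 1447758_x_at, lay at or near the lowest value of the arrays except in wild types. Its values were 2.19 in all 3 adult mutants, against 2.24, 2.66 and 2.86 in adult wild types, and 2.21, 2.21 and 2.19 in E12.5 mutants, against 4.80, 5.24 and 5.03 in E12.5 wild types. An x in a probe set's name marks probes that can also match similar transcripts of other genes. This probe set passed the filter only through the E12.5 wild types, so that it had to differ there, and its E12.5 difference of -2.82 is given as a description. Its adult difference was -0.40 (limma adjusted p = 1), with mutants at the lowest value. The third probe set, 1446189_at, was 2.19 on all 12 arrays.

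The order of Kat6b levels was therefore E12.5 wild types, adult wild types, and then the mutants of both stages, which did not differ beyond their spread. In wild types the adult minus E12.5 difference of 1423508_at was -1.78 (interval -2.44 to -1.13, limma adjusted p = 0.000173). In mutants it was 0.06 (interval -0.60 to 0.71, limma adjusted p = 0.865). The 2 stage comparisons and the 2 mutant comparisons share arrays, so that the first 3 differences fix the fourth.

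Counts of calls are given over the 15 member probe sets that had a log2 value over 4 at both stages, without Kat6b 1447758_x_at. Of these, 1 was called in adult cortex, where 0.0246% of all 20292 probe sets were called, and 1 was called at E12.5, where 0.0641% were. Both calls are those of Kat6b 1423508_at. The other 14 probe sets cover the other 9 genes, and 0 of them passed limma at either stage. Their adult differences ran from -0.15 to 0.69, with 8 above and 6 below 0, 1 unadjusted p under 0.05 and a lowest adjusted p of 0.712. Their E12.5 differences ran from -0.21 to 0.25, with 9 above and 5 below 0, 0 unadjusted p under 0.05 and a lowest adjusted p of 1. Over all probe sets, 930 in adults and 920 at E12.5 had an unadjusted p under 0.05. The 95% interval of the difference lay within 1 log2 unit of 0 for 13 of the 14 probe sets in adults and for 13 of the 14 at E12.5. This bounds a change in the signal of those probe sets at a factor of 2 or less. At E12.5 the 13 take in Brpf3 1435225_s_at, whose mutants all lay at its own lowest value, 5.29, as did wild types 2 and 3. Its interval there bounds no change in RNA. The median difference over the 16 members was 0.00 in adults, against 0.02 over all probe sets, and 0.02 at E12.5, against -0.01 over all.

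**Figure D2:**
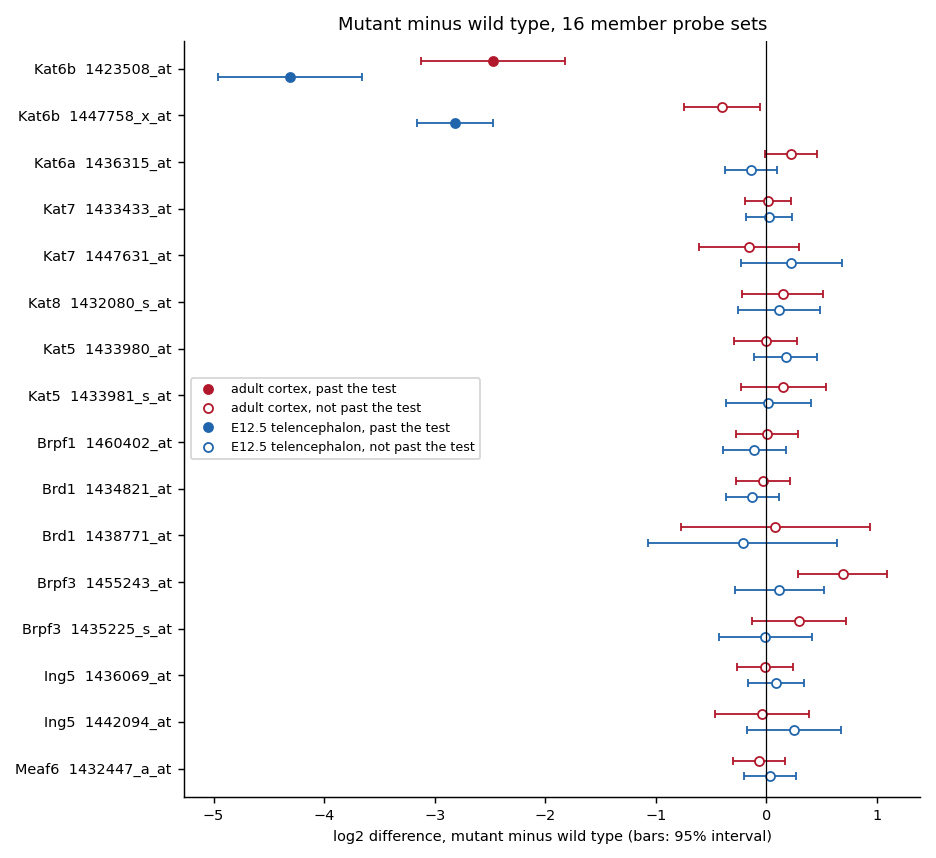
Mutant minus wild-type log2 difference (horizontal axis) of each of the 16 tested member probe sets, with its 95% interval from limma; red is adult cortex, blue is E12.5 telencephalon, and filled points passed the test at an adjusted p under 0.05. Kat6b 1423508_at lies at -2.47 in adults and -4.31 at E12.5, and the other 9 genes lie between -0.21 and 0.69.

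Kat6a, the closest relative of Kat6b, was not called at either stage. Its main probe set, 1436315_at, had log2 values of 9.43, 9.39 and 9.41 in adult mutants, against 9.24, 9.06 and 9.28 in adult wild types. The adult groups did not overlap, with every mutant higher. The difference was 0.22 (interval -0.02 to 0.46, limma adjusted p = 1), a ratio of 1.16 that the interval bounds at 1.37. At E12.5 Kat6a had 9.99, 10.01 and 10.27 in mutants, against 10.14, 10.28 and 10.24 in wild types. These groups overlapped, and the difference was -0.13 (interval -0.37 to 0.10, limma adjusted p = 1). The adult effect minus the E12.5 effect was 0.35 (unadjusted p = 0.039, limma adjusted p = 0.922). The other Kat6a probe sets, 1437487_at and 1446405_at, lay at the lowest value on nearly every array.

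The scaffold gene Brpf3 had the largest adult difference after Kat6b among the members, and it did not pass the test. On 1455243_at the log2 values were 6.15, 6.90 and 6.59 in adult mutants, against 5.82, 5.68 and 6.07 in adult wild types. Every adult mutant was higher than every adult wild type, the nearest pair by a small margin. The difference was 0.69 (interval 0.29 to 1.09, unadjusted p = 0.00303, limma adjusted p = 0.712), a ratio of 1.61. It was 0.33, 1.22 and 0.52 within the age pairs of 155 days, of 112 days and of 99 and 101 days. Its size was 0.86 with the actin control as a covariate and 0.73 without adult mutants 1 and 2. At E12.5 the same probe set gave 6.89, 7.03 and 6.80 in mutants, against 6.96, 6.64 and 6.76 in wild types, which overlapped, with a difference of 0.12. The second probe set, 1435225_s_at, whose name marks probes shared by several transcripts, had 5.94, 6.04 and 5.29 in adult mutants, against 5.79, 5.29 and 5.29 in adult wild types. Its adult groups overlapped, with a difference of 0.30, and 5.29 is its own lowest value. That difference was 0.03 with the actin control as a covariate and -0.17 without adult mutants 1 and 2.

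The other 2 scaffold genes were not called in the mutants. Brpf1 on 1460402_at had 6.81, 6.59 and 6.39 in adult mutants, against 6.67, 6.43 and 6.67 in adult wild types, and 7.35, 7.52 and 7.61 in E12.5 mutants, against 7.57, 7.68 and 7.54 in E12.5 wild types. Brd1 on 1434821_at had 8.62, 8.65 and 8.49 in adult mutants, against 8.62, 8.56 and 8.67 in adult wild types, and 9.77, 9.52 and 9.70 in E12.5 mutants, against 9.69, 9.96 and 9.70 in E12.5 wild types. The genotypes overlapped at both stages for both genes. The 95% intervals were -0.28 to 0.29 in adults and -0.39 to 0.18 at E12.5 for Brpf1, and -0.27 to 0.22 in adults and -0.36 to 0.12 at E12.5 for Brd1. A second Brd1 probe set, 1438771_at, was the noisiest member, with a pooled SD over the 4 groups of 0.54 against 0.21 for the median probe set, and E12.5 mutant values of 6.70, 7.11 and 5.47 against 6.78, 6.47 and 6.67 in E12.5 wild types. Its 2 other probe sets, 1447420_at and 1456692_at, stayed at the lowest value.

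The small subunit genes Ing5 and Meaf6 were not called in the mutants either. Ing5 on 1436069_at had 7.98, 7.96 and 7.85 in adult mutants, against 8.06, 8.07 and 7.70 in adult wild types, and 8.95, 8.82 and 8.93 in E12.5 mutants, against 8.85, 8.84 and 8.73 in E12.5 wild types. Meaf6 on 1432447_a_at had 7.80, 7.61 and 7.83 in adult mutants, against 7.68, 7.83 and 7.92 in adult wild types, and 8.90, 8.69 and 8.88 in E12.5 mutants, against 8.74, 8.79 and 8.83 in E12.5 wild types. Groups overlapped in each of these comparisons. The adult differences were -0.01 (interval -0.27 to 0.24) for Ing5 and -0.07 (-0.30 to 0.17) for Meaf6, and the E12.5 differences were 0.09 (-0.16 to 0.34) and 0.04 (-0.20 to 0.27). The second tested Ing5 probe set, 1442094_at, had overlapping groups at both stages too. Ing5 1431134_at stood at 3.68 on all 12 arrays, Ing5 1454235_a_at stood at 2.19 in all adults and between 2.88 and 4.14 in embryos, and Meaf6 1457977_at ran from 2.50 to 3.65.

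The other 3 enzymes, of which KAT7 can share the KAT6 scaffolds, were also not called. Kat7, an enzyme known for its part in the licensing of DNA replication, had 8.59, 8.67 and 8.67 on 1433433_at in adult mutants, against 8.57, 8.78 and 8.53 in adult wild types, and 8.38, 8.35 and 8.38 in E12.5 mutants, against 8.37, 8.32 and 8.35 in E12.5 wild types. Its pooled SD of 0.07 was the lowest of the 16 member probe sets. Kat8, known from the fly as the dosage compensation enzyme, had 6.90, 7.41 and 7.26 on 1432080_s_at in adult mutants, against 6.86, 7.13 and 7.15 in adult wild types, and 8.03, 7.97 and 8.35 in E12.5 mutants, against 7.75, 8.11 and 8.13 in E12.5 wild types. Kat5 had 9.10, 9.20 and 9.53 on 1433980_at in adult mutants, against 9.23, 9.17 and 9.43 in adult wild types. In E12.5 telencephalon Kat5 had 9.19, 9.22 and 9.34 in mutants, against 8.96, 9.09 and 9.17 in wild types, so that every mutant was higher there by a narrow margin (difference 0.18, interval -0.11 to 0.46, limma adjusted p = 1). A second Kat7 probe set, 1447631_at, also had every E12.5 mutant above every wild type, with 6.95, 6.70 and 6.72 in mutants, against 6.50, 6.50 and 6.70 in wild types.

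**Figure D3:**
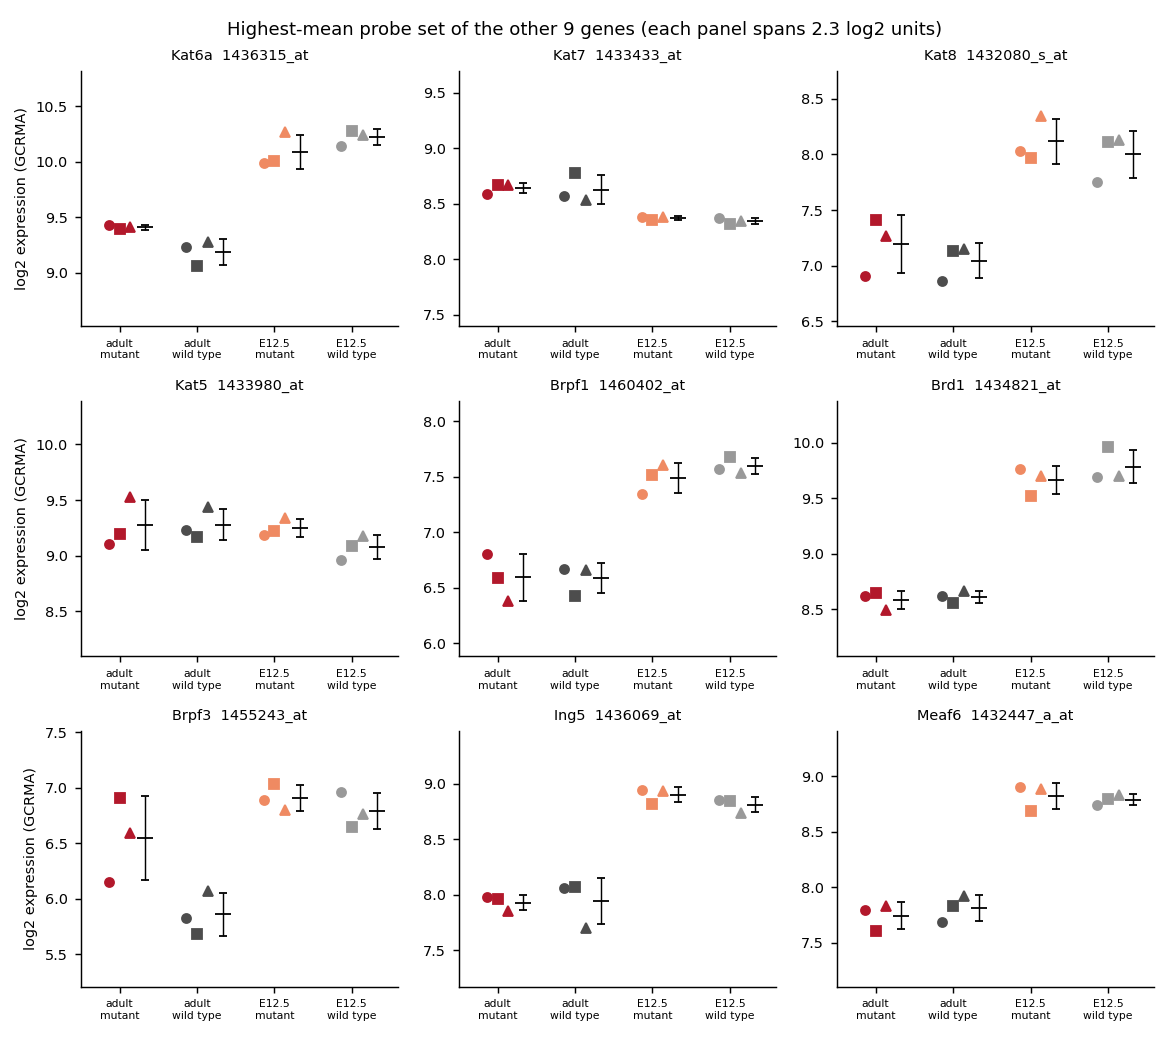
Log2 expression (GCRMA, vertical axis) of the highest-mean probe set of each of the other 9 genes on the 12 arrays, in 4 groups of 3; symbols are replicates 1 (circle), 2 (square) and 3 (triangle), bars are the mean with its SD, and every panel spans the same 2.3 log2 units. Mutants and wild types of a stage lie close together, with every adult mutant above every adult wild type for Kat6a and Brpf3, and 7 of the 9 genes have lower means in adults than in embryos of both genotypes.

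Groups without overlap were counted beside the whole array. In adults 2 of the 16 member probe sets (Kat6a and Brpf3) had every mutant above every wild type, as did 6.19% of all probe sets, and 2 (both Kat6b) had every mutant below, as did 3.45%. At E12.5 the count was 2 above (Kat5 and Kat7), against 3.19% of all, and 2 below (both Kat6b), against 4.46%, of which 1447758_x_at had to differ through the filter. By limma the difference between the adult and the E12.5 effects was called for 0 of the 15 member probe sets, where 0.0148% of all were called. Of the 15, 3 had an unadjusted p under 0.05, those of Kat6b 1423508_at, of Kat6a and of Brpf3 1455243_at (0.57, interval 0.00 to 1.14, limma adjusted p = 0.922).

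Most members were lower in adult cortex than in E12.5 telencephalon. In wild types 11 of the 15 member probe sets with a value over 4 at both stages were lower in adult cortex and 1 was higher, while over all probe sets 43.5% were lower and 35.7% were higher. The median difference was -0.96 over the 15, against -0.14 over all probe sets. The values over all probe sets take in those over 4 at 1 stage alone, which had to differ. They were not recounted over the probe sets with a value over 4 at both stages. Kat6a averaged 9.19 ± 0.12 in adult and 10.22 ± 0.07 in E12.5 wild types (SD, n = 3 each), a difference of -1.03 (SE 0.11, limma adjusted p = 3.31e-06). The Brd1 difference on 1434821_at was -1.17 (SE 0.11, limma adjusted p = 1.41e-06), the Brpf1 difference was -1.01 (SE 0.13, limma adjusted p = 2.04e-05) and the Brpf3 difference on 1455243_at was -0.93 (SE 0.18, limma adjusted p = 0.000602). For each of these genes every adult wild type lay below every embryonic one. Meaf6 differed by -0.98 and Ing5 by -0.87 on 1436069_at, and Kat8 by -0.96, all past the test.

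All 5 partner genes of the KAT6 complexes and both KAT6 enzymes thus had a main probe set that was lower in adult than in E12.5 wild types. Brpf3 and Kat7 differed between their probe sets. Brpf3 1435225_s_at was 0.16 higher in adults and not called (limma adjusted p = 0.451), and the mean of both Brpf3 probe sets differed by -0.38. The high probe set of Kat7, 1433433_at, was higher in adults by 0.28 (interval 0.08 to 0.49, limma adjusted p = 0.0157), and the call was lost without adult wild type 2 (0.21, adjusted p = 0.0669). The low Kat7 probe set, 1447631_at, was lower by 1.31 in adults, and the mean of both fell by 0.51. Kat5 did not pass the test, with 0.20 on 1433980_at (limma adjusted p = 0.167) and 0.27 on 1433981_s_at (limma adjusted p = 0.173), although 1433980_at passed with the actin control as a covariate (0.34, adjusted p = 0.0166) and 1433981_s_at passed with only the groups compared (adjusted p = 0.0273). The calls of Brd1 1438771_at (-0.97) and Ing5 1442094_at (-0.55) were lost with no filter on low values and on leaving out single arrays. For Brd1 these arrays were adult wild types 1 and 2 and each E12.5 wild type, and for Ing5 they were adult wild type 3 and E12.5 wild types 2 and 3.

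**Figure D4:**
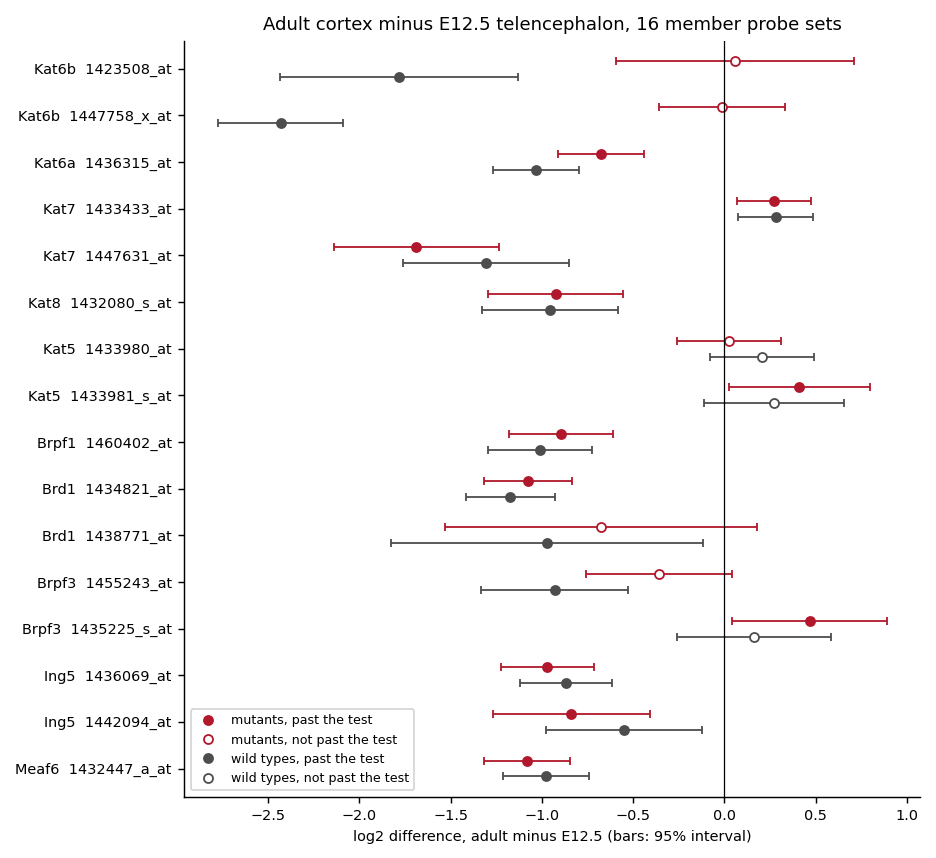
Adult minus E12.5 log2 difference (horizontal axis) of each of the 16 tested member probe sets, with its 95% interval from limma; red is mutants, dark grey is wild types, and filled points passed the test at an adjusted p under 0.05. The 6 probe sets of Kat6a, Brpf1, Meaf6, Kat8, Brd1 1434821_at and Ing5 1436069_at lie between -1.08 and -0.68 in mutants and between -1.17 and -0.87 in wild types, while Kat6b 1423508_at lies at 0.06 in mutants and at -1.78 in wild types.

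In mutants the same stages were compared. There 8 of the same 15 probe sets were lower in adults and 3 were higher, while over all probe sets 43% were lower and 36.5% were higher. The adult minus E12.5 difference in mutants was -0.68 for Kat6a, -1.08 for Brd1 on 1434821_at, -0.89 for Brpf1, -1.08 for Meaf6, -0.97 for Ing5 on 1436069_at and -0.92 for Kat8, all past the test. With the actin control as a covariate the Kat8 difference was -0.52 and was not called (limma adjusted p = 0.101). Brpf3 on 1455243_at differed by -0.36 in mutants (limma adjusted p = 0.0908) and so was not called there, but it passed with quantile normalization (-0.45) and without adult mutant 2 (-0.54). The 3 that were higher were Kat7 1433433_at (0.27), Kat5 1433981_s_at (0.41) and Brpf3 1435225_s_at (0.47). That Brpf3 probe set lay at its own lowest value, 5.29, in every E12.5 mutant. The Kat5 call was lost on leaving out any array but adult mutant 2 and E12.5 mutant 3 in turn, and the Brpf3 value was 0.00 without adult mutants 1 and 2. The Kat7 call was lost without adult mutants 1 and 2 (0.30, adjusted p = 0.0737) and with the actin control as a covariate (0.31, adjusted p = 0.112).

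Further subunits of the complexes in which MYST enzymes work were counted from a list of 33 genes, of which 32 had a probe set and 31 passed the filter, with 70 probe sets. In the mutants 0 of the 70 passed limma at either stage, where 0.0246% of all probe sets were called in adults and 0.0641% at E12.5. An unadjusted limma p under 0.05 was found for 6 in adults and 0 at E12.5, against 930 and 920 of all 20292 probe sets. Adult differences were above 0 for 46 probe sets and below 0 for 24, with a median of 0.05 against 0.02 over all probe sets. At E12.5 they were above 0 for 33 and below 0 for 37, with a median of -0.01, as over all probe sets. The lowest adult p belonged to Trrap, the large scaffold of TIP60-NuA4, which had 9.68, 9.53 and 9.35 in adult mutants, against 9.02, 9.18 and 9.30 in adult wild types (0.35, limma adjusted p = 0.963). Mbtd1, a methyl-lysine reader of the same complex, had 8.42, 8.54 and 8.32 on 1441100_at in adult mutants, against 8.10, 8.14 and 8.09 in adult wild types (0.32, limma adjusted p = 0.97). The other tested Mbtd1 probe sets differed the other way, by -0.21 on 1417261_at and by -0.19 on 1448641_at, where every adult mutant was below every adult wild type, and neither was called. At E12.5 the lowest p values were those of Wdr5 1448389_at, the NSL subunit that also serves methyltransferase complexes (0.44), and of Ep400 1437020_at, the remodelling ATPase of TIP60-NuA4 (-0.36), both with limma adjusted p = 1. The other Wdr5 probe set differed by -0.01 and the other Ep400 probe sets by -0.03 and -0.13.

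**Figure D5:**
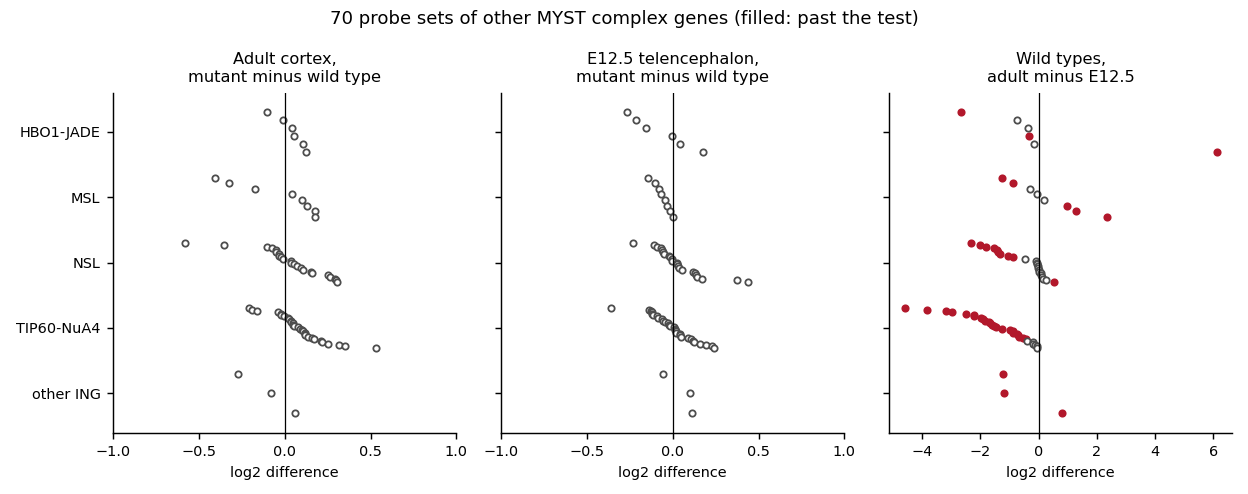
Log2 difference (horizontal axis) of the 70 probe sets of other MYST complex genes, 1 point each, sorted within 5 groups; the panels show mutant minus wild type in adult cortex, mutant minus wild type at E12.5, and adult minus E12.5 in wild types on a wider axis, and filled points passed limma at an adjusted p under 0.05. No point is filled in the mutant panels, and 24 of the 30 TIP60-NuA4 probe sets are filled to the left in the stage panel.

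The complexes were also counted between stages. In wild types 38 of the 68 probe sets with a value over 4 at both stages were lower in adults, 5 were higher and 25 did not pass, beside 43.5% lower and 35.7% higher over all probe sets, most of which were called. The median was -0.72 over the 68, against -0.14 over all probe sets. Here too the values over all probe sets take in those over 4 at only a single stage. TIP60-NuA4, the complex of Kat5, had 24 of 30 probe sets lower in adults and 0 higher, led by Actl6a, an actin-related subunit that is also part of BAF remodellers in progenitors, at 6.98, 6.72 and 6.86 in adult wild types, against 11.45, 11.37 and 11.54 in E12.5 wild types (-4.60). In the NSL complex 8 of 22 were lower and 1 was higher, a lower share near that of all probe sets, and its gene Phf20 held both extremes, with -2.31 on 1458017_at and 0.51 on 1426961_at. In the MSL complex 2 of 8 were lower and 3 were higher, led by the subunit genes Msl3 (-1.26) and Msl1 (2.34 on 1434481_at). The 3 that were higher are all Msl1, whose remaining probe set differed by 0.19 (limma adjusted p = 0.666). In the JADE group 2 of 5 were lower and 0 were higher. Jade3 had 5.97, 5.48 and 5.52 in adult wild types, against 8.56, 8.28 and 8.17 in E12.5 wild types (-2.68). Jade2 had 9.29, 9.55 and 9.05 in adult wild types, against 3.77, 2.96 and 2.82 in E12.5 wild types. It passed the filter through adults alone, so that it had to differ, and its values are given with no test. Of the other ING genes, which read methylated histone H3 in deacetylase complexes, Ing1 was lower by 1.24 in adults and Ing2 was higher by 0.82.

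The genes whose pattern over the 12 arrays was most like that of Kat6b 1423508_at were, by Pearson correlation of log2 values, Pttg1ip (0.75), Zfp420 (0.74), Guf1 (0.74), Pex13 (0.73) and Pcyox1 (0.72). Their adult mutant minus wild-type differences were at most 0.30 in size, so that none followed the depth of the Kat6b change. After each stage's mean was subtracted the closest were Slc35a2 (0.89), Sgms1 (0.88), Nipsnap3b (0.87), Tmod3 (0.86) and B230208B08Rik (0.83). Their E12.5 mutant minus wild-type differences ran from -1.39 (Tmod3) to -0.18 (Nipsnap3b), and their adult ones from -0.32 (Slc35a2) to -0.08 (Sgms1). With the stage means removed, what is left in Kat6b is mostly the genotype difference. Genes picked by likeness to it tend to be lower in mutants, so that these differences are given with no test. The correlations are descriptions over arrays that share their groups, and the genes were picked as the highest of 20292 probe sets.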

How the data were processed

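RNA of 12 samples was measured on Affymetrix expression arrays. The deposited values are log2 expression values, 1 per probe set and array, and the authors made them with GCRMA, a background correction and summary method, per the submitters' processing notes. None of the sources used here gives its version or settings. The floor was 2.19 on every array, and 29.4% to 30.9% of the values of an array lay within 0.01 of it, so that differences from it understate a change. Some probe sets repeated a higher lowest value of their own, such as 5.29 for Brpf3 1435225_s_at and 3.68 for Ing5 1431134_at. That share does not count these values, and the filter at 4 does not remove those that lie above it. Per the labels' protocols, RNA was amplified over 2 cycles before labelling. Array medians ran from 3.64 to 3.74, and precision is limited by having 3 arrays a group.

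No further normalization was applied. Symbols came from the platform annotation, and for 34741 probe sets the gene ID gave the current symbol in RefSeq on GRCm38.p6. Probe sets with exactly 1 symbol (34945, beside 932 with several, 9160 with none and 64 controls) entered the tests if at least 3 arrays had a log2 over 4, as 20292 did. Each was fitted on its own with limma 3.58.1 in R 4.3.3 (lmFit and eBayes, two-sided) over all 12 arrays, as 4 group means with 8 residual degrees of freedom, with Benjamini-Hochberg adjustment over the 20292 and calls at an adjusted p under 0.05. Adjusted p-values are limma's. The fit was run on simulated data with known changes and independent noise. The simulation held no crosses, age pairs or array sets, so that it does not test the fit under such structure. Adults came from separate numbered mice. For embryos nothing says whether arrays held separate litters, so that p-values measure the spread between these samples.

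The members, the list of other subunits and the tests were chosen with earlier results of these data known. Named were all member probe sets, the 2 other subunit probe sets with the lowest p in each mutant comparison, the largest rise and fall of each complex between wild-type stages, and the 5 probe sets of other genes most correlated with Kat6b, before and after subtraction of each stage's mean. The parents in the labels pair the embryos by cross. Deviations from the group mean over the tested probe sets correlated at 0.13 to 0.45 within a cross and at -0.30 to -0.23 between crosses. The deviations of a group cancel out, so that positive values within a cross force negative ones between crosses, which are no separate evidence. The adults shared ages, and their deviations correlated at 0.01 to 0.22 within and -0.27 to 0.19 between age pairs, so that pairing by age was not clear. The alternatives were other filters, summaries per gene, scalings, sets of arrays, variance models and weights, the block, and the actin control as a covariate, and leaving out adult mutants 1 and 2 was chosen after seeing the data.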

Additional observations from a re-analysis of the deposited data

Results flagged for a closer look

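Kat6b 1447758_x_at was picked out because its mutant effect passed limma's test of a difference between the stages, at 2.42 on the log2 scale for the adult effect minus the E12.5 effect. This probe set entered the tests only through the 3 E12.5 wild types, so that the filter and the lowest value of the arrays fixed a large E12.5 difference, and the value is a description that supports no difference between the stages. The mutant minus wild-type difference was -0.40 in adults and -2.82 at E12.5. In both mutant groups this probe set lay at or near the lowest value of the arrays, and in adult wild types it lay between 2.24 and 2.86, so that the adult difference has only a lower bound on its size. The main Kat6b probe set differed in the same direction by 1.84 and was not called.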

How the results depend on the processing

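Over 25 alternatives the Kat6b difference on 1423508_at kept its direction in every fit at both stages. In adults its call was lost with no filter, with only the groups compared and with the replicate block (-2.47 in each, limma adjusted p = 0.102, 0.163 and 0.054), with the actin covariate (-2.62), without adult mutants 1 and 2 (-2.67), and in 10 of 12 fits that left out 1 array (-2.59 to -2.37). At E12.5 it was lost only with the groups compared alone (-4.31, adjusted p = 0.288), and ran from -4.64 to -3.89 with 1 array left out. Its difference between stages passed the test only on the mean of the gene's probe sets (2.13, adjusted p = 0.0337), which takes in 1447758_x_at, and ran from 1.42 to 2.17 with 1 array left out.

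Counts of called probe sets moved more. In adults, where 5 were called, limma called 2 with the stricter filter, 1 with the replicate block, 1 with the trended robust variance, 1 without the first cross, 12 with array weights, 0 with the groups compared alone, 0 with the actin covariate, 0 without adult mutants 1 and 2, and 0 to 4 with 1 array left out. The settings with 0 calls had 617 to 1659 unadjusted p under 0.05. At E12.5, where 13 were called, it called 7 with the stricter filter, 4 on the highest-mean probe set and 4 on the mean of probe sets per gene, 1 with the groups compared alone, 3 with the replicate block, 66 with array weights, 6 with the actin covariate, 36 without the first cross, and 6 to 16 with 1 array left out. For the difference between stages, with 3 calls, it called 6 with no filter, 0 with the stricter filter, 0 on the highest-mean probe set, 1 on the mean of probe sets, 0 with the block, 12 with array weights, 1 with the trended variance, 0 with the actin covariate, 0 without adult mutants 1 and 2, and 1 to 6 with 1 array left out. The settings with 0 calls had 630 to 1456 unadjusted p under 0.05. The stage comparisons called 16085 probe sets in wild types and 16123 in mutants, against 9314 and 9357 on the highest-mean probe set and 9367 and 9396 on the mean of probe sets, which test fewer rows.

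The direction of 3 member results turned. On the mean of its probe sets Kat7 differed between adult and E12.5 by -0.51 in wild types and -0.71 in mutants, where 1433433_at alone was higher in adults. Brpf3 1435225_s_at differed by -0.035 between mutant stages with the actin covariate. Of 1845 member comparisons 1204 were uncalled in both fits, and 85 of those turned sign. The block was not fitted to the stage comparisons, since age pairs and crosses lie within a stage. The causes of these shifts were not tested.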
